A study of Mus musculus with 6 samples.

Results

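Bone morphogenetic proteins (BMPs) are secreted ligands that bind paired serine/threonine kinase receptors, which phosphorylate SMAD proteins that then enter the nucleus and switch on target genes. Extracellular antagonists such as gremlin, noggin and chordin bind BMPs and keep them from the receptors, and the Id genes are among the best known direct targets. In the kidney, BMP7 is needed for nephron formation, and gremlin 1 is needed in the embryo for outgrowth of the ureteric bud.

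The genes described are 9 of the 30281 gene symbols in the table: the antagonists Grem1, Nog, Chrd and Fst, the ligands Bmp2, Bmp4 and Bmp7, and the target genes Id1 and Id3. They are a named list, in which Grem1 was selected on its rise in Tsc2-/- mouse embryo fibroblasts (MEFs), so its MEF values are a description and support nothing further. The other members were also listed with results of these data known.

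RNA-seq was performed on 6 mouse samples, and each condition has a single library. Both MEF lines, Tsc2-/- and Tsc2+/+, also carry p53-/-, and neither was given rapamycin. MKOC and TJ are kidney epithelial lines labelled Tsc2-null, and TJ cells were derived from a secondary tumor in C57BL6 mice. Each kidney line was left untreated or given 100 nM rapamycin, an mTORC1 inhibitor. The labels describe 18 hours with diluent or drug in DMEM without serum but with 0.1% BSA. The same 18 hours are listed for both MEF libraries. No label gives the number of cultures, animals or clones behind a line, so the only replicates of rapamycin are the lines themselves.

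Estimated counts per library were between 22887020 and 37505004. Levels are given as TPM (transcript abundance corrected for transcript length and library size) summed over the transcripts of a gene, with 95% Wilson intervals from the estimated counts that cover counting error only. Tsc2, the gene named in the genotype labels, had 10.5 and 22.6 TPM in Tsc2-/- and Tsc2+/+ MEFs, so its RNA was lower, though not absent, in the Tsc2-/- library. In the kidney libraries labelled Tsc2-null it had 49.1 TPM (MKOC) and 44.0 TPM (TJ) untreated, above both MEF libraries, and 19.5 and 19.1 TPM with rapamycin. The exons behind these counts cannot be read from sums per transcript. Trp53 RNA was present in both MEF libraries, at 28.5 and 26.3 TPM. Of 10 fibroblast markers, 9 had at least 1 TPM in Tsc2-/- MEFs and 8 did in Tsc2+/+ MEFs, where Thy1 was at 0. Of 10 kidney epithelial markers, 8 had at least 1 TPM in each kidney library, while Epcam was at 0 in 3 of the 4.

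Upstream sequences are shown for the member on which the list was built (Grem1), the ligand called in the MEFs and with rapamycin (Bmp4) and the antagonist Chrd. RefSeq promoters (GRCm38.p6) matched 4 of the 9 members, and the run of the other, Id3, overlaps an annotated first exon and is not printed. Each run is the 250 bases before the annotated start, 5′ to 3′ on the strand of the gene. Capitals mark GGCGCC, a GC-rich element of the kind bound by SMAD1 and SMAD5, and CAGAC, a SMAD box. Both strands were searched. The motifs can share 1 base at their ends, which does not occur in the runs shown.
Grem1: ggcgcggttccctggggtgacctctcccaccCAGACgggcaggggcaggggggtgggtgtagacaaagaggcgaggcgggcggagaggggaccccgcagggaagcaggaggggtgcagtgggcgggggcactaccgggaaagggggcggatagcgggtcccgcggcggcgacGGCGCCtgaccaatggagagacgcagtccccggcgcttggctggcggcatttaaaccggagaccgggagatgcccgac
Bmp4: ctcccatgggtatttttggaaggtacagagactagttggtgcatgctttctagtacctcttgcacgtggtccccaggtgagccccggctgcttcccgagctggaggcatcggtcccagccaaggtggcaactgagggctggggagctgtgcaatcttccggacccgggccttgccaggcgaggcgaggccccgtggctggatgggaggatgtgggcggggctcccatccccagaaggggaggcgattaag
Chrd: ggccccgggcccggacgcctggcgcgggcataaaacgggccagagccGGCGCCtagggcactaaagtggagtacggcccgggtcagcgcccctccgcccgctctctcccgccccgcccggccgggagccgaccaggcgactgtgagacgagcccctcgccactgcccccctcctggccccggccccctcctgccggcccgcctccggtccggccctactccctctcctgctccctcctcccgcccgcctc
The Grem1 run (chr2:113758649-113758898, minus strand) holds 1 GGCGCC that begins 78 bases before the start and 1 CAGAC that begins 219 bases before it. The Chrd run (chr16:20732877-20733126, plus strand) holds 1 GGCGCC, 203 bases before the start. The Bmp4 run (chr14:46390670-46390919, minus strand) holds neither motif. GGCGCC is present in 9.59% and CAGAC in 42.2% of 32851 promoters of the same length. The GC content of the runs was 72%, 63.2% and 78% for Grem1, Bmp4 and Chrd, against a median of 52.4%. A match is a description of these letters and not evidence of binding.

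**Figure D1:**
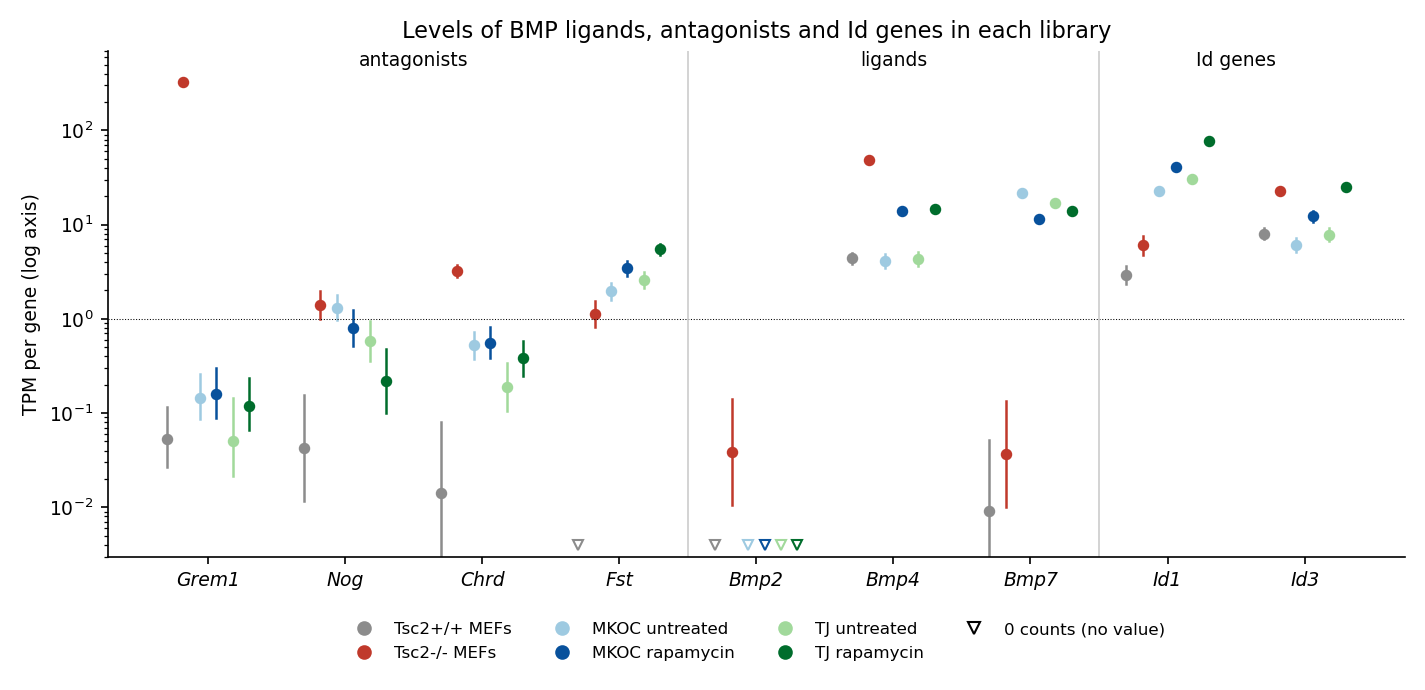
Level of each member in each of the 6 libraries, as TPM per gene on a log axis; points are single libraries, bars are 95% Wilson intervals from counts, open triangles mark 0 counts and the dotted line is 1 TPM. Grem1 stands at 329 TPM in Tsc2-/- MEFs and under 1 TPM in every other library, while Bmp7 is near 0 in both MEF libraries and at 11.6 to 21.7 TPM in the kidney libraries.

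The level of Grem1 was 329 TPM (interval 325 to 334) in Tsc2-/- and 0.0525 TPM in Tsc2+/+ MEFs. In the kidney libraries it was 0.145 TPM (MKOC untreated), 0.161 TPM (MKOC rapamycin), 0.0510 TPM (TJ untreated) and 0.118 TPM (TJ rapamycin). The Tsc2-/- MEF library thus held 99.8% of the TPM summed over the 6 libraries, and the intervals of the other 5 overlap one another. Grem1, which encodes gremlin 1, lies at chr2:113746164-113758646 on the minus strand (ENSMUSG00000074934) and is listed as 1 protein-coding transcript with 2 exons. The nearest protein-coding genes on each side, chosen by position, did not share this pattern: Fmn1 had 17.2 TPM in Tsc2-/- and 8.60 TPM in Tsc2+/+ MEFs, and Scg5 was under 1 TPM in both.

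The other antagonists were far less abundant than Grem1 in Tsc2-/- MEFs. The level of Chrd (chordin, chr16:20733127-20742384, plus strand) was 3.23 TPM in Tsc2-/- MEFs and 0.0142 TPM from 1 count in Tsc2+/+ MEFs. In the kidney lines Chrd was between 0.191 and 0.560 TPM. Nog (noggin, chr11:89300638-89302332, minus strand) had 1.41 TPM in Tsc2-/- MEFs and 0.0422 TPM, from 2 counts, in Tsc2+/+ MEFs. In the kidney lines Nog was at 1.31 and 0.805 TPM in MKOC cells and at 0.586 and 0.219 TPM in TJ cells, untreated and with rapamycin. Fst (chr13:114452290-114458951, minus strand) encodes follistatin, which binds activins most tightly. It had 1.14 TPM in Tsc2-/- MEFs and 0 counts in Tsc2+/+ MEFs, a library in which 3 counts would give 0.0443 TPM. Fst was highest in the kidney lines, with 1.96 TPM untreated and 3.45 TPM with rapamycin in MKOC cells and 2.59 and 5.50 TPM in TJ cells. Its TPM rests on a listed transcript length of 2337 bases, whereas GENCODE M21 gives 1851.

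Of the ligands, Bmp4 was detected in all 6 libraries. Bmp4 (chr14:46383520-46390669, minus strand) had 48.6 and 4.38 TPM in Tsc2-/- and Tsc2+/+ MEFs. It had 4.15 TPM in untreated and 14.0 TPM in rapamycin-treated MKOC cells. The TJ values were 4.35 and 14.6 TPM. The intervals of the untreated kidney libraries and of the Tsc2+/+ MEFs overlap, and so do those of the rapamycin libraries. Bmp7 (chr2:172868012-172940321, minus strand) had 0.0370 TPM in Tsc2-/- and 0.00925 TPM in Tsc2+/+ MEFs, both from at most 3 counts. It was at 21.7 TPM in untreated and 11.6 TPM in rapamycin-treated MKOC cells, and at 16.9 and 13.9 TPM in TJ cells. Bmp2 (chr2:133552159-133562885, plus strand) had 2 counts in Tsc2-/- MEFs and 0 in each other library, so it was not detectable at this depth.

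The Id proteins bind basic helix-loop-helix factors and keep them from DNA. Id1 (chr2:152736251-152737410, plus strand) was lowest in the MEFs, with 6.04 TPM in Tsc2-/- and 2.92 TPM in Tsc2+/+ cells, each from 72 counts. It was at 22.8 and 40.6 TPM in MKOC cells and at 30.8 and 78.0 TPM in TJ cells, untreated and with rapamycin. Id3 (chr4:136143497-136145755, plus strand) had 22.9 and 8.03 TPM in Tsc2-/- and Tsc2+/+ MEFs. The kidney values of Id3 were 6.14 and 12.3 TPM in MKOC cells and 7.85 and 25.4 TPM in TJ cells. TJ cells with rapamycin had the highest level of both genes, although for Id3 the interval (23.2 to 27.8 TPM) overlapped that of Tsc2-/- MEFs (20.7 to 25.3 TPM).

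Summed by role, the 4 antagonists reached 335 TPM in Tsc2-/- MEFs, where the 3 ligands reached 48.7 TPM. In Tsc2+/+ MEFs the antagonists summed to 0.109 TPM and the ligands to 4.39 TPM. In the kidney libraries the ligands summed to between 21.3 and 28.5 TPM and the antagonists to between 3.42 and 6.21 TPM. The first of these sums is almost all Grem1, which was selected on it.

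The comparison of the MEFs asks how these genes differ with loss of Tsc2. It sets 1 library against 1, so it has no replicate check and no p-value. The fold change was computed from TPM with 1 added, which understates the change of genes with low TPM, and a gene was called at 8-fold or more. Grem1 was 314-fold and Bmp4 9.23-fold higher in Tsc2-/- MEFs, and 0 members were 8-fold lower. Of the 9 members, 7 passed the filter on low values and 2 were called, where 3.24% of the 12771 genes with at least 1 TPM in either MEF library were called higher and 0.525% lower. Since Grem1 was selected on this comparison, nothing is read from the count. The median log2 difference of all 12771 genes was 0.45, a general shift that is part of each value. The Tsc2+/+ MEF library stood apart in that transcripts under 300 bases held 20.9% of its TPM, against 7.12% in Tsc2-/- MEFs and 4.09% to 7.998% in the kidney libraries. With those transcripts left out and TPM rescaled, the log2 difference was 3.03 in place of 3.21 for Bmp4, 1.23 in place of 1.40 for Id3, 0.68 in place of 0.85 for Id1 and 8.38 in place of 8.29 for Grem1. With the general shift scaled out instead, on genes at 10 TPM or more in each library, the fold change of Bmp4 was 7.08, under the threshold.

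Without the added 1, the ratio of Bmp4 TPM was 11.1 (exact interval 9.60 to 12.9), and that of Id3 was 2.85 (2.42 to 3.36). The ratio of Id1 was 2.07 (1.47 to 2.91) in TPM and 1.56 in counts per library total, from 72 counts in each library. The fold changes with 1 added were 2.64 for Id3 and 1.80 for Id1, which became 2.04 and 1.43 after scaling. Chrd, Nog and Fst passed the filter on low values only through the Tsc2-/- library. Their fold changes with 1 added were 4.17, 2.31 and 2.14, and Fst was at least 25.7-fold higher when the Tsc2+/+ library is set at the floor of 3 counts. Bmp2 and Bmp7 were at or under that floor in both MEF libraries and have no fold change.

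Markers of other cell types also differed between the MEF libraries. The 6 mesothelial markers summed to 478 TPM in Tsc2-/- MEFs, where 6 of 6 had at least 1 TPM, and to 2.66 TPM in Tsc2+/+ MEFs, where 1 did and Upk3b, Upk1b and Gpm6a were at 0. The 10 kidney epithelial markers summed to 78.0 and 0.253 TPM, with Pax2 at 0 in both. The 5 smooth muscle markers summed to 520 and 240 TPM. Their part in the levels of the members was not tested. In bulk libraries, fewer cells of a type and less RNA per cell cannot be told apart. Among 13913 genes, those whose log2(TPM + 1) over the 6 libraries lay nearest to that of Grem1 were Igfbp3, with a root mean square difference of 0.12, Mest (0.25) and Upk3b (0.45), the last one of the mesothelial markers. Grem1 was selected on its level in Tsc2-/- MEFs, so its likeness rests mostly on that library and supports nothing further. The 3 nearest to Bmp4 were Wdr81 (0.51), Dusp1 (0.51) and Filip1l (0.62), and the 3 nearest to Id1 were Aldh3b1 (0.33), Csdc2 (0.40) and Capn5 (0.42).

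**Figure D2:**
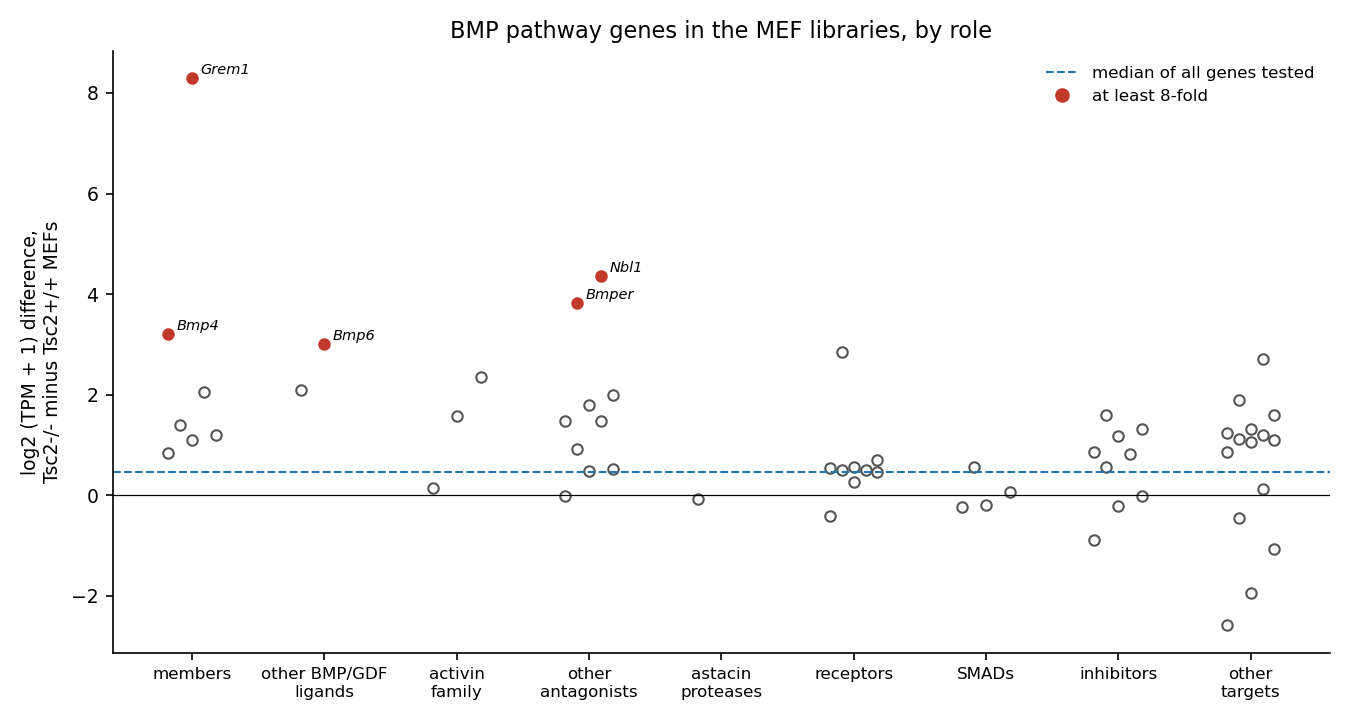
Log2 (TPM + 1) difference of Tsc2-/- minus Tsc2+/+ MEFs for the members and for lists of other BMP pathway genes with at least 1 TPM in either library; each point is a gene from 1 library per genotype, filled points are at least 8-fold, and the dashed line is the median of all genes. Grem1 is at 8.29, and the 4 SMADs lie within -0.23 and 0.57.

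Lists of other genes of the pathway held 83 genes in the table. Of these, 49 had at least 1 TPM in either MEF library, 3 were at least 8-fold higher in Tsc2-/- MEFs and 0 lower, with a median log2 difference of 0.57 against 0.45 for all genes. Over all 12771 genes the shares called were 3.24% and 0.525%, and the 3 called genes passed the filter only through the Tsc2-/- library, so nothing is read from this count. They were the DAN-family antagonist Nbl1 (28.4 and 0.436 TPM, 20.5-fold), the BMP-binding modulator Bmper (21.0 and 0.554 TPM, 14.2-fold) and the ligand Bmp6 (7.01 and 0 TPM, 8.01-fold, and at least 164-fold against the floor of 3 counts). After scaling, the log2 difference of Bmp6 was 2.67, under the threshold of 3 on that scale. Bmpr1a, the most abundant of the receptors in the MEFs, had 59.8 and 41.8 TPM, and 0 of 9 receptors in the filter were called. Bmpr1b, a type I receptor chosen after its values were seen, had 6.17 TPM in Tsc2-/- MEFs and 0 counts in Tsc2+/+ MEFs, which is 7.17-fold with 1 added and at least 257-fold against the floor of 3 counts. It too passed the filter only through the Tsc2-/- library. Of the 4 SMADs, which carry the signal to the nucleus, 0 were called, and the common partner Smad4 had 61.0 and 58.6 TPM.

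The other target genes of the pathway did not share 1 direction in the MEFs. Of 15 in the filter, 11 were higher and 4 lower in Tsc2-/- MEFs, with 0 past 8-fold, while 73.8% of all genes were higher. This list also holds Nog. Id2, the target of this list with the highest level in any library, had 2.49 TPM in Tsc2-/- and 6.37 TPM in Tsc2+/+ MEFs, so it lay on the other side from Id1 and Id3. The homeobox genes Dlx5 (0.468 and 7.82 TPM) and Msx1 (0.147 and 3.39 TPM), chosen after their values were seen, were also lower in Tsc2-/- MEFs. Both homeobox genes passed the filter only through the Tsc2+/+ library. The targets with the largest positive differences, chosen in the same way, were Gata2 (8.47 and 0.452 TPM, 6.52-fold), Gata3 (5.21 and 0.660 TPM, 3.74-fold) and Smad6 (3.43 and 0.456 TPM, 3.04-fold), which passed the filter only through the Tsc2-/- library.

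The second comparison asks what rapamycin did to these genes in the kidney lines. Bmp4, Id1, Id3 and Fst rose with rapamycin and Bmp7 fell, by edgeR's quasi-likelihood test with the line as a covariate (2 lines, Benjamini-Hochberg adjusted p under 0.05). Thus 4 of 8 members tested rose and 1 fell, where 17.5% of 12952 genes rose and 17.4% fell. Since the members were listed with results of these data known, nothing is read from the count. Bmp2 did not pass the filter on low counts and was not tested. Grem1 was not selected on these libraries.

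Bmp4 rose by 1.74 on the log2 scale (SE 0.17, edgeR adjusted p = 7.2e-05), a 3.35-fold rise. Its log2 changes were 1.78 in MKOC and 1.71 in TJ cells, with counting intervals of 1.49 to 2.07 and 1.43 to 2.002 that largely overlap. Both treated libraries were above both untreated ones.

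Id1 rose by 1.10 on the log2 scale (SE 0.15, edgeR adjusted p = 0.00046) and Id3 by 1.34 (SE 0.21, edgeR adjusted p = 0.0012). Both treated libraries were above both untreated ones for each gene. The log2 change of Id1 was 0.86 (counting interval 0.66 to 1.06) in MKOC and 1.33 (1.17 to 1.497) in TJ cells. For Id3 it was 0.96 (0.63 to 1.29) in MKOC and 1.69 (1.41 to 1.97) in TJ cells. These intervals do not overlap between the lines for either gene, but they cover counting error only, and with 1 library per line and treatment a difference in response between the lines was not tested.

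Bmp7 fell by 0.60 on the log2 scale (SE 0.15, edgeR adjusted p = 0.011), with changes of -0.91 in MKOC and -0.29 in TJ cells. Both untreated libraries were above both treated ones. By limma on log2(TPM + 1) its adjusted p was 0.051. Bmp4 moved the other way. The sum of the 3 ligands was 25.9 TPM untreated and 25.6 TPM with rapamycin in MKOC cells, while in TJ cells it rose from 21.3 to 28.5 TPM.

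Fst rose by 0.95 on the log2 scale (SE 0.23, edgeR adjusted p = 0.0099), with changes of 0.81 in MKOC and 1.08 in TJ cells. Nog, the antagonist with the largest negative estimate, had a log2 change of -0.96 (SE 0.42, edgeR adjusted p = 0.10), from 6 to 40 counts per library. Chrd had 0.33 (SE 0.40, edgeR adjusted p = 0.56) and Grem1 0.50 (SE 0.52, edgeR adjusted p = 0.49), the latter from 3.66 to 11.6 estimated counts per library. For these 3 antagonists a change was not detectable at this depth.

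**Figure D3:**
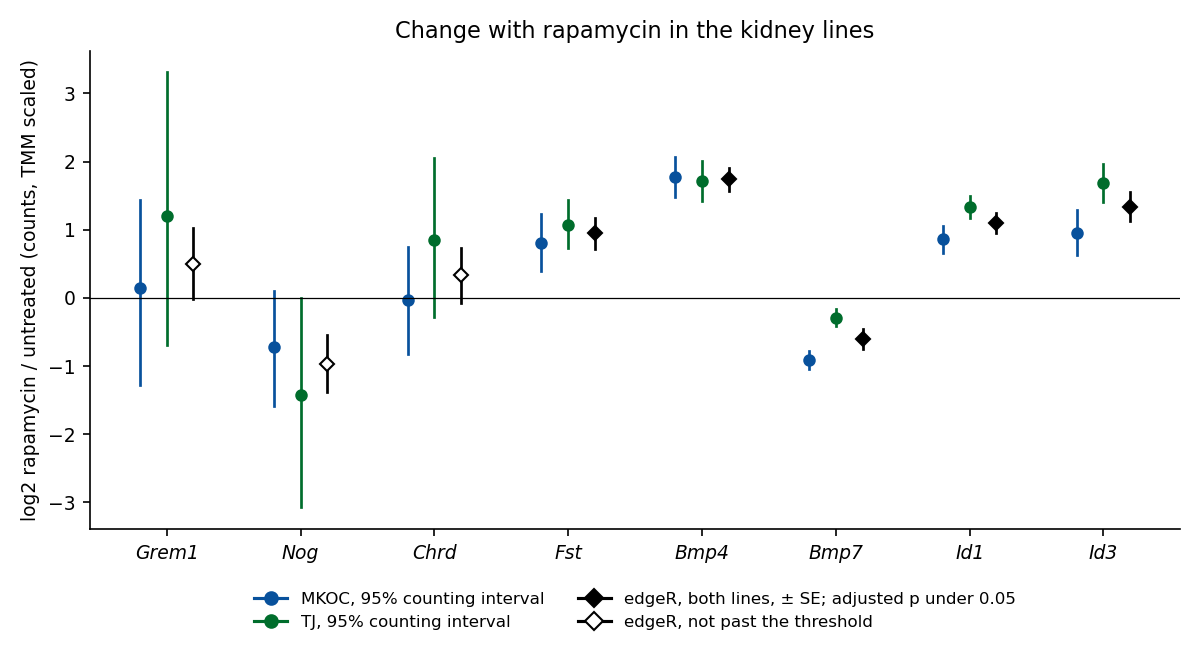
Log2 change of each tested member with rapamycin in MKOC and TJ cells, with 95% counting intervals, and the edgeR estimate over both lines with its SE; filled diamonds passed the adjusted p of 0.05. Bmp4 is at 1.74, Id3 at 1.34 and Id1 at 1.10, Bmp7 is at -0.60, and the intervals of Grem1, Nog and Chrd are wide.

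Without the line as a covariate, only Bmp4 of the members passed the threshold (edgeR adjusted p = 0.013). The adjusted p was then 0.084 for Id1, 0.072 for Id3, 0.13 for Fst and 0.092 for Bmp7. The summed levels of kidney epithelial markers were also higher with rapamycin, at 1535 TPM untreated and 2197 TPM with rapamycin in MKOC cells and of 1743 and 2587 TPM in TJ cells. Krt8, Krt18 and Cdh16 carried these sums, while Pax8 went from 141 to 121 TPM and Pax2 from 15.0 to 12.2 TPM in MKOC cells. In TJ cells these genes went the other way, Pax8 from 147 to 164 TPM and Pax2 from 15.1 to 18.7 TPM. The mesothelial markers, nearly all Msln, summed to 80.3 and 151 TPM in MKOC cells and to 70.3 and 98.5 TPM in TJ cells. The sums of fibroblast markers, nearly all Vim, were 4735 and 7608 TPM in MKOC cells and 3645 and 5335 TPM in TJ cells. The part of these shifts in the changes of the members was not tested.

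Of 46 other pathway genes tested, 12 rose with rapamycin and 1 fell, with a median log2 change of 0.27 against 0.015 over all 12952 genes tested, of which 17.5% rose and 17.4% fell. These lists were also chosen with earlier results of these data known, so nothing is read from the count. The largest rise was that of Inhbb, the activin beta B subunit, at 2.16 (edgeR adjusted p = 0.0024), although its level stayed between 0.0731 and 1.04 TPM. Junb, an AP-1 subunit and BMP target, rose by 1.37 (edgeR adjusted p = 0.00029), from 13.3 to 26.5 TPM in MKOC and from 16.4 to 55.2 TPM in TJ cells. Smad7, the inhibitory SMAD that is itself induced by the pathway, rose by 1.06 (edgeR adjusted p = 0.00017), from 15.5 to 29.1 TPM in MKOC and from 20.5 to 35.5 TPM in TJ cells. The type II receptor Acvr2b rose by 1.06 and the co-receptor Tgfbr3 by 0.76 (edgeR adjusted p = 0.035 and 0.00040). Among antagonists, Nbl1 rose by 0.84 and the follistatin-like gene Fstl3 fell by 0.64 (edgeR adjusted p = 0.0029 and 0.012).

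Of the remaining Id genes, Id4 rose by 0.56 on the log2 scale (edgeR adjusted p = 0.0036), from 31.8 to 48.5 TPM in MKOC and from 34.8 to 50.0 TPM in TJ cells. Id2, at 35.5 to 63.9 TPM in the kidney libraries, had an estimate of 0.19 (edgeR adjusted p = 0.21), and the difference between Id2 and Id4 was not tested. Of the 12 other targets tested, which include the member Nog, 3 rose and 0 fell, where 17.5% of 12952 genes rose and 17.4% fell. Of the 4 SMADs 0 passed the threshold, with estimates between -0.073 and 0.56.

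**Figure D4:**
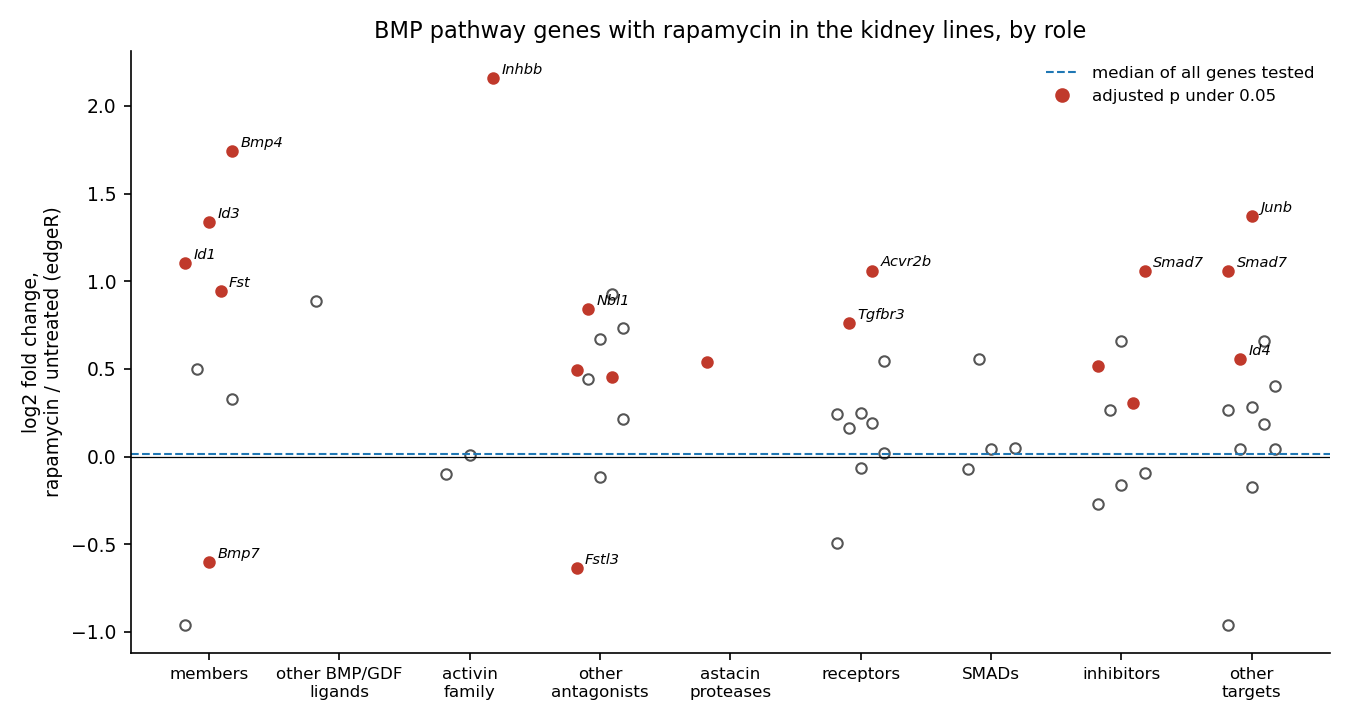
Log2 fold change with rapamycin in the kidney lines (edgeR, 2 lines) for the members and for lists of other BMP pathway genes; each point is a gene, filled points have an adjusted p under 0.05, the dashed line is the median of all genes tested, and Smad6, Smad7 and Nog are drawn in 2 columns. Of the 46 other genes, 12 are filled above 0 and 1, Fstl3, is filled below it.

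The third comparison sets TJ against MKOC cells, with treatment as a covariate. Its p-values measure how far the difference between the lines varied between treatments and say nothing of other lines of either kind. Id1 was higher in TJ cells by 0.68 on the log2 scale (SE 0.15, edgeR adjusted p = 0.019), a 1.60-fold difference. Of 8 members tested, 1 was thus higher and 0 lower, where 5.47% of 12952 genes were higher and 3.32% lower. The difference in Id1 was 0.43 between the untreated and 0.91 between the treated libraries. Id3 had an estimate of 0.69 (SE 0.21, edgeR adjusted p = 0.075) and Nog one of -1.44 (SE 0.42, edgeR adjusted p = 0.063), and neither passed the threshold. Bmp4 had an estimate of 0.065 (SE 0.17, edgeR adjusted p = 0.86). With the line alone in the model, 0 genes passed in edgeR and the adjusted p of Id1 was 0.9997, while 702 had an unadjusted p under 0.05, and with treatment as a covariate DESeq2 called 405 higher and 217 lower.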

How the data were processed

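Poly(A)-selected stranded RNA-seq libraries were made from 6 mouse samples. The authors trimmed reads with Trimmomatic 0.32 and ran Kallisto (version not given in the sources used here), and deposited estimated counts and TPM for 88198 transcripts. Their methods name the hg38 transcriptome, but the identifiers are Ensembl mouse. From the authors' deposited ratio between the MEF libraries, gene symbols alone were taken. The members, the gene lists and the rule for named genes (all members, at most 8 list genes past each threshold and the most abundant ones) were chosen with earlier results of these data known.

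Estimated counts and TPM were summed per symbol. MEF folds used TPM with 1 added. Kidney counts were rounded, filtered with filterByExpr, scaled by TMM and tested with edgeR 4.0.16 (R 4.3.3), with the line as a block. The SE given with an edgeR estimate is not an output of edgeR but the value implied by its quasi-likelihood F statistic. The pairing comes from the labels, and deviations of the libraries of a line from the treatment means correlated at 0.56. DESeq2 1.42.0 and limma 3.58.1 were alternatives, beside other scalings, filters, thresholds and pseudocounts. Counts without a symbol were at most 0.468% of a library and were left out. Positions are from GENCODE M21 (GRCm38). Steps were tested on simulated data. A floor of 3 counts was used. Other tools were scipy 1.17.1, pandas 2.3.3, numpy 2.4.6, matplotlib 3.10.9 and Python 3.11.15.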

Additional observations from a re-analysis of the deposited data

Results flagged for a closer look

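The estimates for Chrd with rapamycin had opposite signs in the kidney lines on TMM-scaled counts, with a log2 value of -0.0293 (counting interval -0.82 to 0.75) in MKOC and of 0.848 (-0.28 to 2.06) in TJ cells. In TPM both lines had a ratio of treated to untreated above 1, at 1.07 in MKOC and 1.99 in TJ cells, so the sign in MKOC cells depends on the scaling. Both counting intervals include 0, an opposite direction is not established, and the difference between the lines was not tested.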

How the results depend on the processing

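In the MEFs, 414 genes were at least 8-fold higher and 67 lower in the Tsc2-/- library. These counts were 1113 and 218 with 0.1 TPM added, 102 and 22 with 5 TPM added, 929 and 178 at 4-fold and 3222 and 662 at 2-fold. Of the members, 2 were called higher, against 5 with 0.1 TPM added and 6 at 2-fold. With 5 TPM added, with the median ratio scaled to 1, with CPM or with the most abundant transcript of a gene, 1 was called. In the kidney lines, 2267 genes rose with rapamycin and 2259 fell. Without the replicate block by line, 559 rose and 716 fell, with 1 member higher and 0 lower. DESeq2 called 1466 genes higher. At an adjusted p of 0.01, 1302 genes rose and 1307 fell. At that threshold and by limma, 0 members fell. The log2 change of Chrd ranged from -0.0293 in MKOC to 0.848 in TJ cells. For TJ against MKOC, 709 genes were higher and 430 lower. DESeq2 gave 405 and 217, limma 431 and 174, an adjusted p of 0.01 gave 294 and 109, and the line alone gave 0 and 0. Without the filter on low counts 741 genes were lower, and 2 members were higher (Id1 and Id3) and 1 lower (Nog). Id1 was not called with the line alone or at 0.01, where 0 members were higher. The difference in Bmp7 ranged from -0.381 (untreated) to 0.245 (rapamycin). The causes of these shifts were not tested, beyond what the settings themselves change.

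With 1 library per MEF genotype, library and genotype cannot be told apart. Counts of Grem1, Nog and Chrd in the kidney libraries are few, which limits the precision of their changes.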

Other observations

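Beyond the members, 2 of the 46 other pathway genes tested were higher and 4 lower in TJ than in MKOC cells, where 5.47% of all 12952 genes were higher and 3.32% lower, and these 6 were named after their values were seen. Id2 (log2 difference 0.63, edgeR adjusted p = 0.0073) and Junb (0.68, edgeR adjusted p = 0.034) were higher. The type I receptor Bmpr1b (-1.13, edgeR adjusted p = 0.0080), the activin beta A subunit Inhba (-1.30, edgeR adjusted p = 0.047), Crim1 (-0.37, edgeR adjusted p = 0.048) and the ubiquitin ligase Smurf1 (-0.35, edgeR adjusted p = 0.049) were lower.

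Reads of Bmp4 were divided between a pair of protein-coding transcripts. ENSMUST00000074077 took 53.1% of the estimated counts of Bmp4 in Tsc2-/- MEFs and 40.0% in Tsc2+/+ MEFs. In the kidney libraries it took 45.2% and 57.9% in MKOC cells and 59.5% and 56.1% in TJ cells, untreated and with rapamycin, so the lines did not share a direction. How Kallisto divides reads between overlapping transcripts is part of these shares. Of the 164 counts of Chrd in Tsc2-/- MEFs, 62.4% were assigned to the transcript of 23 exons that codes for protein, 17.1% to a retained-intron transcript and 20.4% to a transcript annotated for nonsense-mediated decay. Id1 counts lay mostly on the spliced transcript of 2 exons, with a share of 76.1% in Tsc2+/+ MEFs and 90.2% to 98.98% in the other 5 libraries.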
